A study of Mus musculus with 8 samples.

Results

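The genes described here are 4 mouse genes named for developmental pluripotency associated proteins, Dppa2, Dppa3, Dppa4 and Dppa5a. They were picked by name among the 48440 genes listed in the count tables, with earlier results of these data known. All 4 were among the 17049 genes with enough reads to be tested. GENCODE M21 holds 8 genes whose symbols start with Dppa, of which 6 were listed in the tables. The other two listed ones are Dppa1, at 0 reads in every library, and the pseudogene Dppa3-ps, which was tested.

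RNA was sequenced from mouse embryonic stem (ES) cells of the MK6 line, which comes from the C57BL/6J strain, at day 1 of differentiation. The cells had been moved to N2/B27 medium free of LIF and of the inhibitors that hold the naive state, and differentiation was started with the GSK3 inhibitor CHIR99021. There were 4 genotypes with 2 libraries each (n = 2 throughout). WT cells carried unedited Tbxt, the gene for the T-box factor brachyury. Tbxt delE6/delE6 cells lacked exon 6 on both alleles, and their libraries came from different clones. Tbxt delE6/+ cells lacked it on one allele. Tbxt Insert ASAY cells carried a human AluSx1 and AluY pair in the introns around exon 6 on both alleles. The deletion lines were edited without feeder cells and the insertion line on mouse embryonic fibroblast feeders, so feeder history cannot be told apart from the type of edit. Each edited genotype stands for few clones, and p-values measure the spread between these libraries.

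Dppa2 and Dppa4 are SAP-domain proteins that form a heterodimer on chromatin. In ES cells they are known to activate genes of the 2-cell-like state, among them Dux and the Zscan4 cluster, and to keep DNA methylation away from the promoters of some developmental and germline genes. Dppa3, also called Stella or PGC7, is a maternal factor that guards DNA methylation in the zygote and holds back Uhrf1, the partner of the maintenance methyltransferase, in ES cells and oocytes. Dppa5a, also called Esg1, is a KH-domain protein that binds RNA and is abundant in naive ES cells and germ cells. It belongs to a family with the oocyte proteins Ooep and Khdc3.

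In GRCm38, Dppa2 lies at chr16:48303908-48319723 on the plus strand and Dppa4 at chr16:48283733-48294237 on the same strand. Only 9671 bp separate the pair. Dppa3 lies at chr6:122626410-122630272 on the plus strand and Dppa5a at chr9:78367052-78368177 on the minus strand. The coding sequences are 301 codons for Dppa2, 150 for Dppa3, 296 for Dppa4 and 118 for Dppa5a, taking the longest transcript of each.

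All 4 genes have near copies in the genome, which bears on how their reads can be assigned. Shown are 120 coding bases of Dppa2, Dppa3 and Dppa5a beside the same stretch of a copy of each, from GENCODE M21 transcripts and written 5′ to 3′, since so few bases tell them apart. Each stretch was picked for the most differing bases within the longest gap-free block of the alignment, so the rest is more alike. Capitals mark the bases that differ. The Dppa2 stretch runs over exons 1 and 2 (chr16:48310508-48311662, plus strand) and differs from the retrocopy Gm9788 at 4 bases.
Dppa2: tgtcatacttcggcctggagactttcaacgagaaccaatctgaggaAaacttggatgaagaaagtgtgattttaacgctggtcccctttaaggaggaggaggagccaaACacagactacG
Gm9788: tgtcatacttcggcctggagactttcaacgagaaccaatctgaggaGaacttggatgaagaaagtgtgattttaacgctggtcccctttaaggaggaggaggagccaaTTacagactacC
The Dppa3 stretch also runs over exons 1 and 2 (chr6:122626580-122628665, plus strand) and differs from Dppa3-ps at 5 bases.
Dppa3: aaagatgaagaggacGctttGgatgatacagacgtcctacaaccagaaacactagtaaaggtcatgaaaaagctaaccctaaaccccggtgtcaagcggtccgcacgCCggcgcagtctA
Dppa3-ps: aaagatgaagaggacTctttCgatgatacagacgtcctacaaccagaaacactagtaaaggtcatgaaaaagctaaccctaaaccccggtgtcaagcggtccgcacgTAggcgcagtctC
The Dppa5a stretch lies in exon 2 (chr9:78367781-78367900, minus strand) and differs from Dppa5b at 5 bases.
Dppa5a: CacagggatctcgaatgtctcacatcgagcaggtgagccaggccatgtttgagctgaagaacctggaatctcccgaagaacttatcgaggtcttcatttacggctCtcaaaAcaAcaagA
Dppa5b: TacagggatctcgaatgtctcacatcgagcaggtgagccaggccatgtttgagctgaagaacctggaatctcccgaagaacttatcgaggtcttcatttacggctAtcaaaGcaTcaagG

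Over the whole alignment, Gm9788 matched Dppa2 at 99.3% of 906 bases, and Dppa3-ps matched Dppa3 at 98.2% of 451 bases. Dppa5b and Dppa5c, which are identical to each other and lie close to Dppa5a, matched it at 97.0% of 297 bases. For Dppa2, 30.3% of all 100-base windows of its transcript occur without a mismatch in another annotated transcript (Gm9788, Gm8023 or Gm9298). The share was 16.8% for Dppa4 (Gm14058 or Gm5501), 3.08% for Dppa5a and 0% for Dppa3. The read length is not given in the sources used here, so these shares only approximate those of ambiguous reads. STAR leaves reads that map to several places out of its gene counts, so the levels of Dppa2 and Dppa4 are uncertain by the reads lost there, and this loss was not measured. Few reads were counted on the copies themselves. Of the 10 copies, 7 were listed, and the highest count of any was 54 reads (Gm14058), 3.28% at most of the Dppa4 reads in the same library. Gm9788 had 6 to 20 reads, at most 2.3% of those of Dppa2, and Dppa3-ps had 15 to 40, at most 5.41% of those of Dppa3.

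Total reads on genes ranged from 24618587 to 28445952 per library. Levels are given as CPM (read counts scaled to a common library size by TMM), and only comparisons between genes use RPKM, which also divides by exon length. The edited gene itself, listed as T, was near the floor of detection, with 47 and 42 reads in WT, 26 and 22 in Tbxt delE6/delE6, 39 and 54 in Tbxt delE6/+ and 30 and 29 in Tbxt Insert ASAY. At these low counts T was called lower in Tbxt delE6/delE6 than in WT (log2 -0.81, edgeR adjusted p = 0.0360). It was higher in Tbxt delE6/+ than in Tbxt delE6/delE6 (0.98, adjusted p = 0.0101). It was lower in Tbxt Insert ASAY than in Tbxt delE6/+ (-0.76, adjusted p = 0.0265), and was called in no other comparison. A count over the whole gene checks neither edit. Of 12 pluripotent cell markers all were tested, and Pou5f1 (Oct4), the defining one, had at least 4244 reads in every library. Against WT 4, 8 and 3 of them were called lower in Tbxt delE6/delE6, Tbxt delE6/+ and Tbxt Insert ASAY, and 1, 2 and 1 higher, beside 6.59%, 6.89% and 9.85% of all tested genes lower and 6.12%, 6.6% and 11.5% higher. Of 12 fibroblast feeder markers 10 were tested, and their summed level was 98.0 to 109 CPM in WT, 76.4 to 82.4 in Tbxt delE6/delE6, 117 to 124 in Tbxt delE6/+ and 63.3 to 63.4 in Tbxt Insert ASAY. Against WT, 0, 3 and 0 of the 10 were called higher and 4, 2 and 7 lower in Tbxt delE6/delE6, Tbxt delE6/+ and Tbxt Insert ASAY. Fbln2 had up to 1251 reads, with log2 fold changes of -0.93, 0.98 and -1.09, and Acta2 and Col1a1 were at -1.60 and -1.32 in Tbxt Insert ASAY. Postn did not exceed 2 reads and Lum 6 reads in any library. The part of these genes in the Dppa values was not tested.

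Per kilobase, Dppa5a stood far above the rest of its family. In WT cells its level was 879 ± 37.3 RPKM (SD, n = 2), place 39 from the top among 16999 genes. Dppa3 followed at 43.2 ± 0.674 RPKM, then Dppa4 at 38.8 ± 2.79 and Dppa2 at 9.66 ± 0.358. With all exons of a gene joined as its length, the libraries of these neighbours in rank did not overlap. The order of Dppa3 and Dppa4 was the other way round in the edited lines. Dppa4 measured 40.5, 30.1 and 39.7 RPKM in Tbxt delE6/delE6, Tbxt delE6/+ and Tbxt Insert ASAY, against 19.7, 17.1 and 28.4 RPKM for Dppa3. Dppa2 was the lowest of the 4 in every genotype. No test was run between genes.

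The 4 genes followed 3 patterns over the genotypes. Dppa3 and Dppa5a fell in all edited lines, Dppa2 fell in one line and rose in another, and Dppa4 met the call in none. A gene is called here when its adjusted p in the edgeR quasi-likelihood test is under 0.05 (Benjamini-Hochberg over 17049 genes) and its log2 fold change lies beyond 0.5 in either direction. The comparisons against WT share the same WT libraries, so they are not independent of each other.

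**Figure D1:**
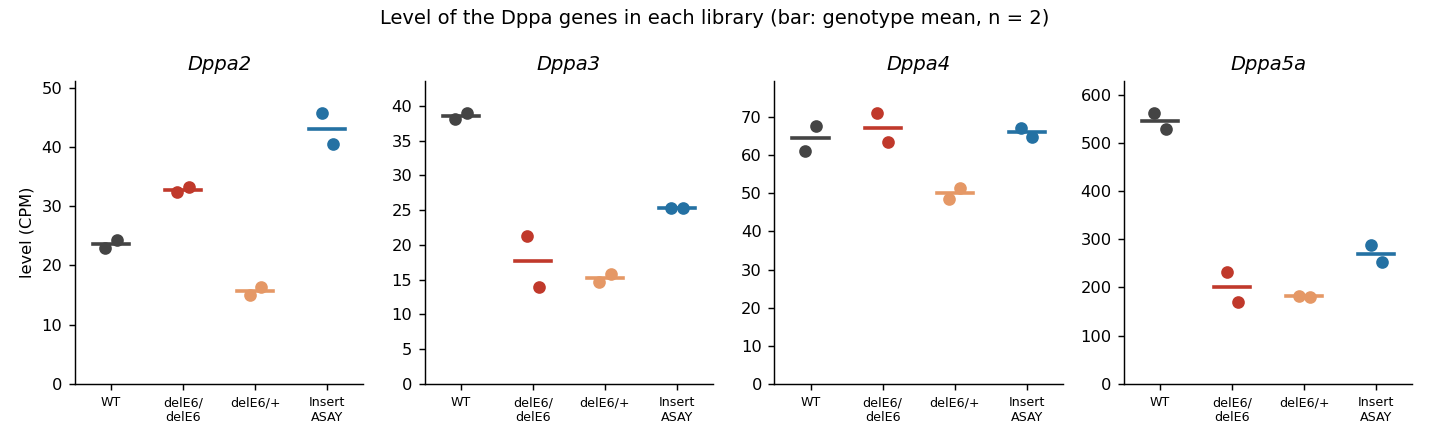
Level in CPM (y axis, starting at 0) of each Dppa gene in the 8 libraries by genotype (x axis), with points for libraries and bars for the mean of 2. Dppa3 and Dppa5a are highest in WT, Dppa2 is highest in Tbxt Insert ASAY, and Dppa4 stands apart only in Tbxt delE6/+, where it is lowest.

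Dppa5a showed the deepest fall. WT libraries had 15534 and 14188 Dppa5a reads, Tbxt delE6/delE6 5702 and 4629, Tbxt delE6/+ 4827 and 4412, and Tbxt Insert ASAY 7914 and 6893. In CPM these were 561 and 528, then 231 and 170, then 183 and 180, then 288 and 252. Both WT libraries were above all 6 others, and the Tbxt Insert ASAY libraries lay between WT and the deletion lines. The means against WT were 36.8% in Tbxt delE6/delE6, 33.3% in Tbxt delE6/+ and 49.7% in Tbxt Insert ASAY. The log2 fold changes were -1.44 ± 0.11 (SE; adjusted p = 5.47e-06), -1.58 ± 0.11 (adjusted p = 3.82e-07) and -1.01 ± 0.10 (adjusted p = 1.13e-05) in edgeR. Ordered from the most negative fold change, Dppa5a was gene 140 of 17049 in Tbxt delE6/delE6, 145 in Tbxt delE6/+ and 511 in Tbxt Insert ASAY.

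Between edited lines, Dppa5a was higher in Tbxt Insert ASAY than in Tbxt delE6/+ by 0.57 ± 0.11 on the log2 scale (edgeR adjusted p = 0.000511), which was called. This call was lost without Tbxt Insert ASAY replicate 1 (0.48) and in a test that asks for a change beyond the fold threshold itself (TREAT, adjusted p = 0.386). Against Tbxt delE6/delE6 the log2 difference was 0.43 ± 0.10 with an adjusted p of 0.0142, short of the fold threshold. It was called without Tbxt delE6/delE6 replicate 1 (0.66) and without Tbxt Insert ASAY replicate 2 (0.52), and was 0.23 without Tbxt delE6/delE6 replicate 2 and 0.33 (adjusted p = 0.176) without Tbxt Insert ASAY replicate 1. The deletion lines overlapped, with a log2 difference of -0.14 and a 95% interval from -0.37 to 0.09.

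Dppa3 took the same order of genotypes as Dppa5a. It had 1055 and 1046 reads in WT, 526 and 378 in Tbxt delE6/delE6, 388 and 387 in Tbxt delE6/+, and 694 and 692 in Tbxt Insert ASAY. In CPM these were 38.1 and 38.9, then 21.3 and 13.9, then 14.7 and 15.8, then 25.3 in both. No edited library reached the WT range, and the libraries of Tbxt delE6/+ fell between those of Tbxt delE6/delE6. The means were 45.7%, 39.6% and 65.7% of WT in the order Tbxt delE6/delE6, Tbxt delE6/+ and Tbxt Insert ASAY. The log2 fold changes were -1.14 ± 0.14 (adjusted p = 0.000113), -1.34 ± 0.14 (adjusted p = 1.17e-05) and -0.61 ± 0.13 (adjusted p = 0.00196) in edgeR, all called. In the TREAT test the fall in Tbxt Insert ASAY was not called, with an adjusted p of 0.458.

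Dppa3 was higher in Tbxt Insert ASAY than in Tbxt delE6/+ by 0.73 ± 0.14 on the log2 scale (edgeR adjusted p = 0.000766), which the TREAT test did not call (adjusted p = 0.114). The log2 difference from Tbxt delE6/delE6 was 0.53 ± 0.14 (adjusted p = 0.0212). Without Tbxt delE6/delE6 replicate 2 it was 0.25 (adjusted p = 0.0307), under the fold threshold, and without replicate 1 of that line 0.85 (adjusted p = 4.28e-07). The value stayed at 0.53 without Tbxt Insert ASAY replicate 1 (adjusted p = 0.128), without its replicate 2 (adjusted p = 0.0962) and with only those 2 genotypes in the fit (adjusted p = 0.0900), but the call was lost. The TREAT test did not call it either. The deletion lines differed by a log2 of -0.20, with a 95% interval from -0.52 to 0.12.

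The Tbxt delE6/delE6 libraries stood further apart than other replicates for these genes. Their log2 gap was 0.619 for Dppa3 and 0.443 for Dppa5a, against at most 0.176 for Dppa2 and 0.162 for Dppa4 in any genotype. Whether this comes from the different clones was not tested. Leaving out either library kept both falls against WT, with log2 fold changes from -1.47 to -0.85 for Dppa3 and from -1.68 to -1.24 for Dppa5a over all alternatives tried, called in 12 of 12. Reads of the Dppa3-ps copy fell as well, by 1.09 on the log2 scale in Tbxt delE6/delE6 (adjusted p = 0.011) and by 0.94 in Tbxt delE6/+ (adjusted p = 0.0230), while in Tbxt Insert ASAY the log2 fold change was -0.17 (adjusted p = 0.610).

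Dppa2 moved in opposite directions in different lines. It had 638 and 652 reads in WT, 801 and 906 in Tbxt delE6/delE6, 397 and 398 in Tbxt delE6/+, and 1255 and 1106 in Tbxt Insert ASAY. In CPM these were 23.0 and 24.3, then 32.4 and 33.2, then 15.0 and 16.3, then 45.7 and 40.5. No genotype overlapped another, and the order from high to low was Tbxt Insert ASAY, Tbxt delE6/delE6, WT and Tbxt delE6/+. Against WT the log2 fold change was 0.87 ± 0.08 in Tbxt Insert ASAY (edgeR adjusted p = 5.28e-06) and -0.60 ± 0.09 in Tbxt delE6/+ (adjusted p = 0.000188), both called. In Tbxt delE6/delE6 it was 0.47 ± 0.08 with an adjusted p of 0.000856, just under the fold threshold, and it passed when WT replicate 2 was left out (0.51). In the TREAT test the fall in Tbxt delE6/+ was not called, with an adjusted p of 0.467.

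Between edited lines, 2 of 3 differences of Dppa2 were called. Tbxt Insert ASAY was above Tbxt delE6/+ by 1.46 ± 0.08 on the log2 scale, or 2.76-fold (edgeR adjusted p = 6.21e-08). Tbxt delE6/+ was below Tbxt delE6/delE6, with a log2 fold change of -1.07 ± 0.08 (adjusted p = 7.72e-07). Both were called under all 12 alternatives. Tbxt Insert ASAY and Tbxt delE6/delE6 differed by 0.39 ± 0.08 (adjusted p = 0.00447), under the fold threshold. The retrocopy Gm9788, whose reads could in part come from Dppa2, was called higher in Tbxt Insert ASAY than in Tbxt delE6/+ (log2 1.26, adjusted p = 0.0283) and in no other comparison.

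Dppa4, the partner of Dppa2, varied least. It had 1696 and 1821 reads in WT, 1754 and 1731 in Tbxt delE6/delE6, 1280 and 1259 in Tbxt delE6/+, and 1848 and 1767 in Tbxt Insert ASAY. In CPM these were 61.2 and 67.8, then 71.0 and 63.5, then 48.5 and 51.5, then 67.3 and 64.7. WT, Tbxt delE6/delE6 and Tbxt Insert ASAY overlapped, and Tbxt delE6/+ lay below them. Its mean there was 77.5% of WT, a log2 fold change of -0.37 ± 0.07 with an edgeR adjusted p of 0.00155 that stayed short of the fold threshold. The 95% intervals against WT ran from -0.09 to 0.21 in Tbxt delE6/delE6 and from -0.12 to 0.18 in Tbxt Insert ASAY. The log2 fold change was -0.43 for Tbxt delE6/+ against Tbxt delE6/delE6 (adjusted p = 0.000308) and 0.40 for Tbxt Insert ASAY against Tbxt delE6/+ (adjusted p = 0.000392), again without a call. The first of these was called without Tbxt delE6/delE6 replicate 2 (-0.51).

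**Figure D2:**
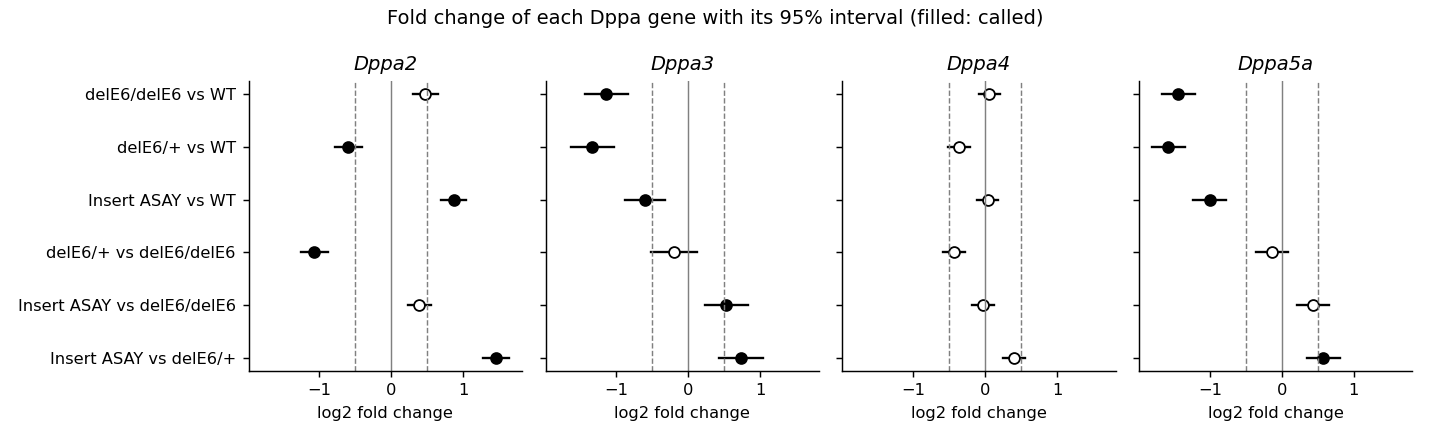
Log2 fold change (x axis) of each Dppa gene in the 6 comparisons (y axis), with the 95% interval as a line and the fold threshold of 0.5 in either direction dashed. Filled points are called. Dppa3 and Dppa5a are called against WT in all 3 edited lines, Dppa2 is called lower in Tbxt delE6/+ and higher in Tbxt Insert ASAY, and Dppa4 has no filled point.

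Counted over the family, 13 of 24 tests were called. Against WT, 2 of 4 genes were called in Tbxt delE6/delE6, none higher and 2 lower, where 12.7% of all tested genes were called, 6.12% higher and 6.59% lower. In Tbxt delE6/+ 3 of 4 were called, all lower, against 13.5% of tested genes, 6.6% higher and 6.89% lower. In Tbxt Insert ASAY 3 of 4 were called, 1 higher and 2 lower, against 21.3%, 11.5% higher and 9.85% lower. For Tbxt delE6/+ against Tbxt delE6/delE6, 1 of 4 was called, lower, against 22.2% of tested genes, 11.2% higher and 11% lower. For Tbxt Insert ASAY against Tbxt delE6/delE6, 1 of 4 was called, higher, against 5.16%, 2.79% higher and 2.38% lower. For Tbxt Insert ASAY against Tbxt delE6/+, 3 of 4 were called, all higher, against 27.5%, 14.6% higher and 13% lower. With 4 genes each count is small. The median log2 fold change of the family against WT was -0.539 in Tbxt delE6/delE6, -0.966 in Tbxt delE6/+ and -0.286 in Tbxt Insert ASAY. Over all tested genes the medians were -0.0096, -0.000586 and -0.00514, and list medians given further on stand beside the same values.

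Since Dppa2 and Dppa4 work as a pair and are neighbours in the genome, their reads were set against each other within each library, where sequencing depth drops out. The ratio of Dppa2 to Dppa4 reads was 0.376 and 0.358 in WT, 0.457 and 0.523 in Tbxt delE6/delE6, 0.31 and 0.316 in Tbxt delE6/+, and 0.679 and 0.626 in Tbxt Insert ASAY. The genotypes did not overlap, and the order was that of Dppa2 itself. The ratio of Dppa5a to Dppa3 reads covered a narrower span, with a mean of 14.1 ± 0.82 in WT, 11.5 ± 0.994 in Tbxt delE6/delE6, 11.9 ± 0.736 in Tbxt delE6/+ and 10.7 ± 1.02 in Tbxt Insert ASAY (SD, n = 2). These are ratios of reads, not of molecules, since the genes differ in length, and no test was run on them.

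**Figure D3:**
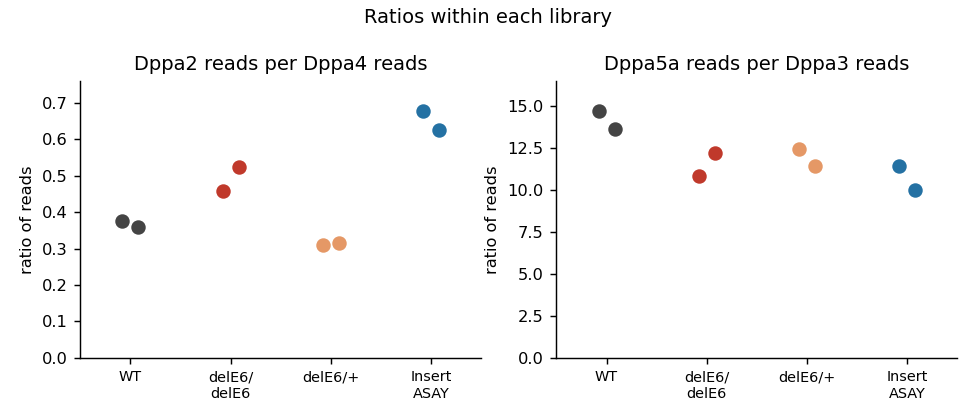
Reads of Dppa2 per read of Dppa4 (left) and of Dppa5a per read of Dppa3 (right) in each library (y axes, starting at 0) by genotype (x axis). The Dppa2 to Dppa4 ratio separates the 4 genotypes, from 0.31 in Tbxt delE6/+ to 0.679 in Tbxt Insert ASAY, while WT alone stands above the other genotypes on the right.

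Across the 8 libraries, log2 CPM of Dppa3 and Dppa5a had a Pearson correlation of 0.97, and Dppa2 and Dppa4 of 0.828. The other pairs lay between 0.095 and 0.538. These describe 8 points from 4 genotypes, and libraries of one genotype share their cell line. The same measure was taken for 12836 other genes whose mean level reached 2 CPM. The genes most like Dppa3 were Gpa33, a cell-surface glycoprotein gene, and Pou5f1, both at 0.989. Cdo1, which encodes cysteine dioxygenase, Gm12346 and the transporter gene Slc16a11 came next. Pou5f1 measured 288 CPM in WT, 185 in Tbxt delE6/delE6, 180 in Tbxt delE6/+ and 230 in Tbxt Insert ASAY.

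The genes most like Dppa5a were Tdrd12, a Tudor-domain gene of the piRNA pathway (0.976), Tomm7, of the mitochondrial import pore (0.974), Sdc4, Pycard and Slc16a11. Those most like Dppa2 were Zfp977 (0.998), a zinc finger gene, Arntl (0.994), which encodes the clock factor Bmal1, Pafah2, St3gal3 and Cbx7, a Polycomb subunit (0.992). Those most like Dppa4 were Eng, which encodes the TGF-β co-receptor endoglin (0.985), Rasgrp4, Ids, Tsta3 and Sh3yl1. In bulk RNA, fewer cells expressing a gene and less RNA per cell cannot be told apart.

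The state of the cells was read from lists of pluripotency genes. Of 12 naive factors, 6 were called lower and none higher against WT in Tbxt delE6/delE6, 8 lower in Tbxt delE6/+ and 6 lower in Tbxt Insert ASAY, where 6.59%, 6.89% and 9.85% of all tested genes were called lower. Esrrb, a nuclear receptor of the naive network, fell in Tbxt delE6/delE6 (log2 -1.04) and in Tbxt Insert ASAY (-0.56), and Tfcp2l1 fell in all 3 lines (-0.90, -0.54 and -1.07). Klf5 fell from 43.9 CPM in WT to 26.4 in Tbxt delE6/+ and 21.9 in Tbxt Insert ASAY. Some members went the other way without a call. Klf2 was at 0.30 in Tbxt delE6/delE6 (edgeR adjusted p = 0.00583). In Tbxt Insert ASAY, Zfp42 was at 0.45 (adjusted p = 0.000122), Nr0b1 at 0.41 and Nr5a2 at 0.32. The median over the list was -0.672, -0.671 and -0.646, and Dppa3 and Dppa5a were lower in the same lines. With any single library left out, 5 to 7 of the 12 were called lower in each of these comparisons, the 5 in Tbxt delE6/+ being without its replicate 2. With DESeq2, 4 were called lower in Tbxt delE6/delE6 and 5 in Tbxt Insert ASAY. DESeq2 called 1554 of 14738 and 2805 of 16790 tested genes there in either direction. In the TREAT test 5, 2 and 3 were called lower in the 3 lines. There, 267, 775 and 1215 of all 17049 tested genes were called in either direction. Of 11 formative factors, 2, 3 and 2 were called higher and 0, 1 and 0 lower, where 6.12%, 6.6% and 11.5% of all tested genes were called higher. Sall2 rose in all 3 lines (0.58, 0.69 and 0.79), Pou3f1 in Tbxt delE6/delE6 (0.74) and Tbxt Insert ASAY (0.51), and Lef1 in Tbxt delE6/+ (1.23). Etv4 fell in Tbxt delE6/+ (-0.61). Otx2 and Fgf5 were near the floor, with at most 10 and 22 reads, and were not called against WT. The part of these shifts in the Dppa values was not tested.

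The 2-cell-like genes, which include known targets of Dppa2 and Dppa4, split the lines. Of 14 tested genes, 10 were called lower and none higher in Tbxt delE6/delE6 against WT, and 12 lower in Tbxt delE6/+, beside 6.59% and 6.89% of all tested genes called lower. In Tbxt Insert ASAY 3 were called higher (Zscan4a, Zscan4c and Zscan4d) and none lower, beside 11.5% of all tested genes called higher. Their summed level was 28.6 to 30.0 CPM in WT, 14.5 to 16.1 in Tbxt delE6/delE6, 11.9 to 12.1 in Tbxt delE6/+ and 35.8 to 41.0 in Tbxt Insert ASAY, with no overlap between genotypes. Against each deletion line, 12 of the 14 were called higher in Tbxt Insert ASAY, with medians of 1.42 against Tbxt delE6/delE6 and 1.67 against Tbxt delE6/+. Of all tested genes, 2.79% were called higher against Tbxt delE6/delE6 and 14.6% against Tbxt delE6/+. Of the deletion lines, Dppa2 in Tbxt Insert ASAY was called higher only against Tbxt delE6/+, and its log2 difference from Tbxt delE6/delE6 was 0.39. Among the 2-cell-like genes called were Zscan4e, at 2.21 ± 0.25 against Tbxt delE6/delE6 (adjusted p = 9.39e-05), and Usp17la, at 1.79 ± 0.23 against Tbxt delE6/+ (adjusted p = 3.30e-05).

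The 2-cell-like genes and Dppa2 did not keep the same order of genotypes. In Tbxt delE6/delE6, Dppa2 had a log2 fold change of 0.47 against WT while the median of the 2-cell-like genes was -1.07. Duxf3, the gene for Dux, had 0 reads in every library. Counts of these genes are low, with at most 187 reads for Zscan4d, and the Zscan4 and Usp17l genes are near-identical copies among which reads cannot be assigned with certainty, so their number of calls is not a number of independent genes. Calls over all tested genes also fell under each alternative given next. TREAT called 267 of 17049 in Tbxt delE6/delE6 and 1215 in Tbxt Insert ASAY against WT, and 134 between these lines, in either direction. DESeq2 called 1554 of 14738 in Tbxt delE6/delE6 against WT and 582 of 14224 between these lines. The 10 calls in Tbxt delE6/delE6 became 6 with DESeq2 and 1 in the TREAT test, the 12 against Tbxt delE6/delE6 became 5 with DESeq2, 4 in the TREAT test, 5 without Tbxt Insert ASAY replicate 1 and 7 without its replicate 2. The 12 in Tbxt delE6/+ became 7 without its replicate 1, and the 3 in Tbxt Insert ASAY became 0 in the TREAT test, 0 without WT replicate 1 and 5 without Tbxt Insert ASAY replicate 2.

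Genes known for promoters under DNA methylation were also listed. The members are germline genes apart from Nkx2-5, a cardiac regulator, which was called lower in Tbxt delE6/delE6 (log2 -0.63) and Tbxt Insert ASAY (-0.88) and is counted here. Of 20 tested, 10 were called lower in Tbxt delE6/delE6 against WT and 12 in Tbxt Insert ASAY, with none higher, whereas in Tbxt delE6/+ 2 were lower and 2 higher. Over all tested genes 6.59% and 9.85% were called lower in the first pair of lines, and 6.89% lower and 6.6% higher in Tbxt delE6/+, to which its counts are close. Ddx4, the germ cell helicase Vasa, fell in Tbxt delE6/delE6 (log2 -0.53) and Tbxt Insert ASAY (-0.68), and so did the piRNA factor Piwil2 (-0.71 and -0.87). Taf7l, a germ cell subunit of TFIID, fell in Tbxt delE6/+ (-1.07), where Asz1 (1.53) and Tdrd1 (0.59) rose. The count of 10 became 2 without Tbxt delE6/delE6 replicate 2, 14 without its replicate 1, and 6 and 4 without WT replicate 1 or 2. Calls over all tested genes moved in the same directions. They were fewer without Tbxt delE6/delE6 replicate 2 or either WT library, and more without Tbxt delE6/delE6 replicate 1. In the TREAT test 0 and 2 genes were called lower in Tbxt delE6/delE6 and Tbxt Insert ASAY. Of all 17049 tested genes, TREAT called 267 and 1215 there in either direction. Summed levels in Tbxt delE6/delE6 were 240 and 338 CPM, the widest replicate gap of the 4 genotypes.

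**Figure D4:**
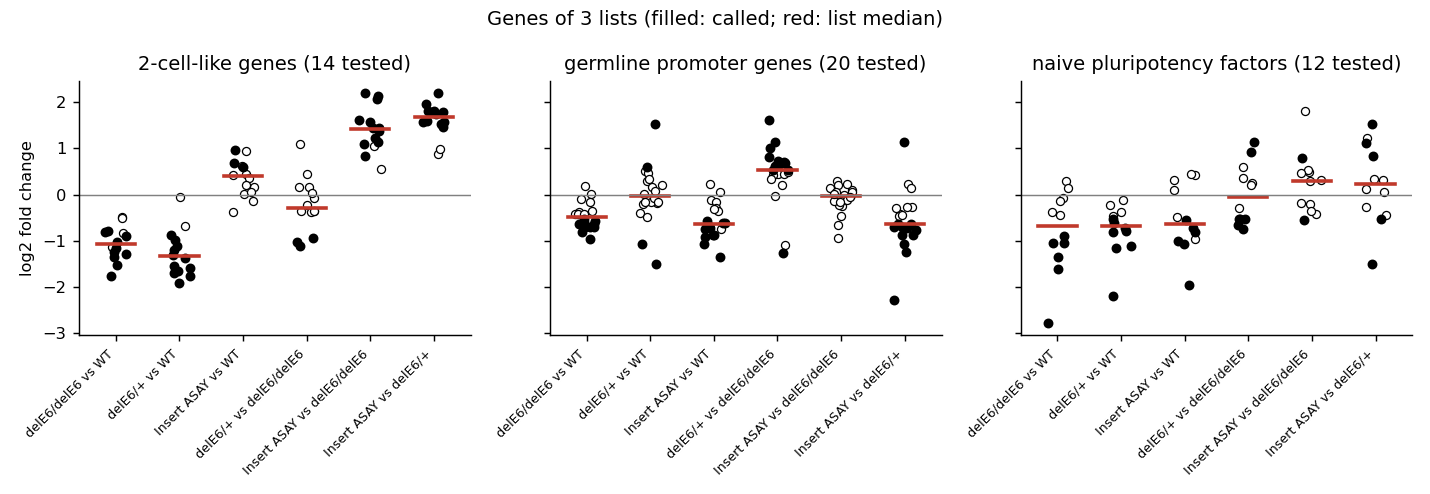
Log2 fold change (y axis) of each tested gene of 3 lists in the 6 comparisons (x axis), filled where called, with the list median in red. The 2-cell-like genes lie below 0 in the deletion lines against WT and above 0 in Tbxt Insert ASAY against either deletion line, and the naive factors have negative medians in all 3 comparisons against WT.

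In the machinery of DNA methylation, on which Dppa3 acts, 1 of 11 tested genes was called higher and 1 lower in each edited line against WT, beside 12.7%, 13.5% and 21.3% of all tested genes called in either direction. Tet3, which oxidises methylcytosine and is blocked by Dppa3 in the zygote, rose in Tbxt delE6/delE6 (log2 0.60) and Tbxt Insert ASAY (0.63). Tet2 fell in those lines (-0.75 and -0.70) and rose in Tbxt delE6/+ (0.71), and Dnmt3l fell in Tbxt delE6/+ (-0.75). Uhrf1, named here for its known link to Dppa3, was not called in any line, at 0.12, 0.11 and 0.20 (edgeR adjusted p = 0.0691, 0.107 and 0.00355). In Tbxt Insert ASAY it was short of the fold threshold only. DNA methylation itself was not measured.

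Of 10 genes of germ cell specification, in which Dppa3 is a classic marker, 4 were called lower in Tbxt delE6/delE6, 2 in Tbxt delE6/+ and 2 in Tbxt Insert ASAY, where 2 were also higher. Over all tested genes 6.59%, 6.89% and 9.85% were called lower, and 11.5% higher in Tbxt Insert ASAY. Prdm14 and Tfcp2l1 are also on the list of naive factors, so their calls are counted in both lists. They are the 2 called lower in Tbxt delE6/+. Tfap2c, a specifier of primordial germ cells, fell in Tbxt delE6/delE6 (-0.99) and Tbxt Insert ASAY (-0.53). Prdm14 fell in both deletion lines (-2.79 and -2.19) from a low level, with at most 27 reads. The interferon-induced gene Ifitm1, an early germ cell marker, rose in Tbxt Insert ASAY (0.52).

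A list of KH-domain relatives of Dppa5a and of genes of the oocyte complex was largely silent. Only 4 of 10 were tested, and Khdc3 and the 3 Khdc1 genes had at most 10 reads. Ooep, the nearest relative in the genome, fell with Dppa5a in all 3 edited lines. It measured 16.3 and 15.4 CPM in WT, 7.04 and 4.58 in Tbxt delE6/delE6, 6.59 and 8.58 in Tbxt delE6/+, and 8.82 and 8.34 in Tbxt Insert ASAY. Both WT libraries were above all others. The log2 fold changes were -1.45 ± 0.17 (adjusted p = 9.39e-05), -1.07 ± 0.16 (adjusted p = 0.000274) and -0.88 ± 0.16 (adjusted p = 0.000579). Tle6, a partner of Ooep in the maternal complex, fell in both deletion lines (-0.59 and -0.57). In Tbxt Insert ASAY it was at -0.47 without a call, while Zbed3 rose (0.79). Padi6, with at most 30 reads, was called lower in Tbxt delE6/+ (-0.999, edgeR adjusted p = 0.0314). Against WT, 2 of the 4 were called lower in Tbxt delE6/delE6, 3 in Tbxt delE6/+ and 1 in Tbxt Insert ASAY, where 1 was higher. Over all tested genes 6.59%, 6.89% and 9.85% were called lower, and 11.5% higher in Tbxt Insert ASAY.

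The genes around each locus were then examined up to 100 kb away. Near Dppa5a, 4 neighbours were tested. Ooep, 7932 bp from it, was the only one called against WT. The helicase gene Ddx43, the DNA sensor gene Cgas and Mto1, for tRNA modification in mitochondria, were not called against WT, at -0.44, -0.51 and -0.08 in Tbxt delE6/delE6. Between edited lines, Ooep and Ddx43 were called higher in Tbxt Insert ASAY than in Tbxt delE6/delE6 (0.57 and 0.63). Around Dppa2 and Dppa4 the only other tested gene was the pseudogene Gm7204, which was not called in any comparison.

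Dppa3 sits in a cluster with other pluripotency genes, and 7 of its neighbours were tested. Nanog, a core pluripotency factor 77217 bp away, fell in all edited lines, with 38.7 and 32.9 CPM in WT, 21.1 and 13.8 in Tbxt delE6/delE6, 21.7 and 19.5 in Tbxt delE6/+, and a mean of 21.6 ± 0.839 in Tbxt Insert ASAY. Its log2 fold changes were -1.04 ± 0.15, -0.80 ± 0.14 and -0.73 ± 0.14 (adjusted p = 0.000260, 0.000905 and 0.000966). Gdf3, a TGF-β family ligand only 16323 bp from Dppa3, was not called, at -0.35, 0.12 and 0.04. Apobec1, for an RNA-editing deaminase, fell in Tbxt Insert ASAY (-1.44) with a value of -0.02 in Tbxt delE6/+. It was called lower in Tbxt delE6/delE6 (-0.67, edgeR adjusted p = 0.0304). Its libraries there were far apart, at 13.4 and 6.45 CPM, against 15.7 and 15.8 in WT. Slc2a3, the glucose transporter Glut3, fell in Tbxt delE6/delE6 and Tbxt Insert ASAY (-0.58 and -1.31) and rose in Tbxt delE6/+ (0.53). The genes at the Dppa3 locus thus did not share one pattern.

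**Figure D5:**
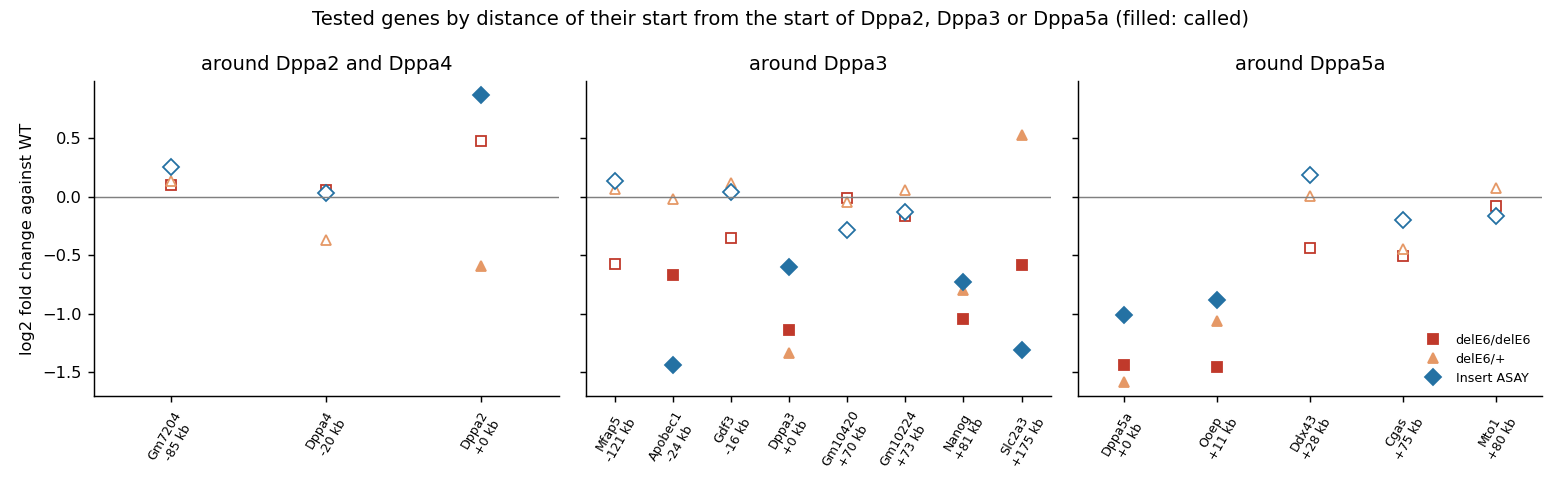
Log2 fold change against WT (y axis) of the Dppa genes and their tested neighbours, ordered by the distance of their start from that of Dppa2, Dppa3 or Dppa5a (x axis, kb along the chromosome), with filled symbols where called. Ooep lies with Dppa5a below 0 in all 3 lines, Dppa4 lies near 0 beside Dppa2 in Tbxt delE6/delE6 and Tbxt Insert ASAY and at -0.37 in Tbxt delE6/+, and around Dppa3 only Nanog is also called lower in all 3.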

How the data were processed

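Poly(A) RNA was sequenced from 8 libraries with a directional kit. The authors mapped reads to mm10 with STAR 2.7.2a and deposited its gene counts per library; DESeq2 1.40.2 is also named in the submitters' processing notes. The deposited tables hold unstranded, forward and reverse counts, and the reverse counts were used here. STAR's 4 summary lines were left out. Gene IDs were matched to GENCODE M21 (48058 of 48440, of which 40606 had the same ID version, so the tables' annotation release differs), whose transcripts also gave lengths and sequences. RPKM lengths and the listing of copies may thus differ slightly from the annotation counted.

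Counts were filtered with filterByExpr, scaled by TMM and fitted in edgeR 4.0.16 (R 4.3.3) by the quasi-likelihood test, with the 4 genotypes in one fit and Benjamini-Hochberg adjustment. SE is the log2 fold change over the root of F, and 95% intervals use its t distribution. The procedure was tested on simulated data, and no result of that test is used here. DESeq2 1.42.0 was one alternative, beside other scalings, filters, strand, sample sets, a replicate block, TREAT and each library left out. The study's own design used DESeq2.

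The members and gene lists were chosen with earlier results of these data known. Named were the Dppa genes, Tbxt, up to 3 called genes per list and comparison by smallest adjusted p (in lists that check the cells, also the 3 most abundant), genes within 100 kb, and the 5 genes most correlated with each member (prior count 2). The sequence copies, Duxf3, Uhrf1, Nkx2-5, Postn, Lum, Khdc3, the Khdc1 genes, Etv4, Otx2 and Fgf5 were named outside that rule. Depth limits precision for genes with few reads.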

Additional observations from a re-analysis of the deposited data

Results flagged for a closer look

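Dppa2 responded in opposite directions in different lines, by a test of the difference itself. It was called lower against WT in Tbxt delE6/+ and higher in Tbxt Insert ASAY, and the log2 fold change between these lines was 1.46 (Tbxt Insert ASAY over Tbxt delE6/+, edgeR adjusted p = 6.21e-08). Between the deletion lines it was -1.07 (Tbxt delE6/+ over Tbxt delE6/delE6, adjusted p = 7.72e-07), with a value of 0.47 against WT in Tbxt delE6/delE6 that was under the fold threshold. In both comparisons every library of one line lay above every library of the other. With single libraries left out, the first ranged from 1.37 to 1.55 and the second from -1.13 to -1.01, and both stayed called.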

How the results depend on the processing

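Of 288 repeats of the member log2 fold changes under alternative settings, 268 kept direction and call, 10 lost the call, 4 gained it and 6 changed sign. Where a value changed sign, it was uncalled before and after, and the cause was not tested. With single libraries left out, the Dppa4 log2 fold change ranged from -0.017 to 0.14 in Tbxt delE6/delE6 against WT, from -0.040 to 0.11 in Tbxt Insert ASAY against WT and from -0.11 to 0.041 between these lines. For Tbxt delE6/+ against Tbxt delE6/delE6, Dppa3 ranged from -0.48 to 0.13 and Dppa5a from -0.35 to 0.092. The number of members called there ranged from 1 to 2. For Tbxt Insert ASAY against Tbxt delE6/delE6 it ranged from 0 to 2, was 0 in the TREAT test and 0 with only these genotypes fitted. For Tbxt Insert ASAY against Tbxt delE6/+ it was 1 in the TREAT test and 2 to 3 with libraries left out. Taking the longest transcript as gene length, WT Dppa3 was at 46.2 RPKM and Dppa4 at 43.6 RPKM, and their WT libraries then overlapped. For the naive, 2-cell-like and germline lists, an alternative added after the data were seen, 53 of 432 counts of calls moved by over 1.5 times.

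Replicate numbers name samples only. The correlation of replicate differences between genotypes was -0.1 to 0.0672 over 12837 genes. With replicate number as a block, 2, 3 and 3 members were called against WT and 1, 1 and 3 between lines, the same numbers as without it.

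Limits are 2 libraries per genotype, few clones per edit, and low reads for Tbxt and the 2-cell-like genes. Cell composition, feeder history and reads lost to sequence copies were not tested.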
